A study of Mus musculus with 12 samples.

Results

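A set of 8 genes known for their part in Schwann cells and myelin was followed across the series: Mbp, Pmp22, Mal, Prx, S100b, Cdh19, Ngfr and Ncam1. They were chosen by name as a group that had already been seen to stand high on 1 array of these data, and every probe set annotated to 1 of these symbols alone was taken. Prx had 0 such probe sets, so 7 of the 8 genes were measured, of 18193 genes with a single-symbol probe set. The 7 genes were read by 24 of 45101 probe sets, and 18 of the 24 were bright enough on average to enter the test between genotypes.

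RNA came from primary epithelial cells of the mammary glands of 6-week-old FVB/N females, an inbred strain. All mice carried MMTV-rtTA, in which the mouse mammary tumour virus promoter drives a doxycycline-dependent activator, and from 5 weeks of age all were given doxycycline in their chow, at 2 g/kg, over 7 days. The control group (6 arrays) carried nothing further, and the p190B group (6 arrays) also carried TetO-p190B-IRES-luciferase, which makes p190B, a GTPase-activating protein encoded by Arhgap5, under the activator's control. The comparison asks what the p190B transgene changes in these cells. The MMTV promoter that drives the activator is active mainly in mammary epithelium. The labels call the 6 samples of a group biological replicates, and the sources used here do not say whether 1 sample held cells of 1 or several mice. If it held several, p-values measure the spread between such pools.

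Schwann cells are the glia of peripheral nerve. The myelinating kind wraps a single large axon in a compacted membrane sheath, whose proteins include myelin basic protein and peripheral myelin protein 22, and the non-myelinating kind holds bundles of thin axons and carries the low-affinity neurotrophin receptor and NCAM. The mammary gland is innervated, and nerve fibres run with its vessels and in its stroma. None of the 8 genes belongs to Schwann cells alone: Pmp22 and Mal are also made by epithelia, S100b by fat cells and Ngfr and Ncam1 by other stromal or basal cells. Bulk arrays give 1 value for all the cells of a sample, so fewer cells of a type and less RNA per cell cannot be told apart.

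The values are linear intensities from 1 array per sample. Log2 values below are log2(intensity + 16), and a probe set was tested if its mean log2 value reached the 40th percentile, about 101 intensity units. This left 27022 probe sets. The keratins Krt8 (42125 ± 3298 for control, 42795 ± 1706 for p190B, SD, n = 6 each) and Krt14 (11044 ± 2548 and 10851 ± 1876) show that luminal and basal epithelial RNA was present in both groups. RNA of other cells was present too. The adipocyte marker Fabp4 read 47439 ± 3370 for control and 46555 ± 2616 for p190B. The fibroblast marker Col3a1 read 43818 ± 4600 and 45384 ± 3971 (SD, n = 6 each). The share of each cell type was not measured. The 4 Arhgap5 probe sets did not move together (log2 differences of −0.32 to 0.41, with limma adjusted p of 0.258 or more); this check of the genotype labels gave no call. Of the 12 arrays, 2 stood apart for the Schwann cell and myelin genes, control replicate 4 and p190B replicate 6, and results are given with and without them.

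Upstream sequence was available for 4 of the measured genes. It is shown for Mal, Pmp22 and S100b, which varied together over the arrays, as described further on. Ngfr, the other measured gene with such sequence, varied with them too and is not shown. Each line holds the 250 bases before an annotated gene start, 5′ to 3′ on the strand of the gene, from RefSeq on the build GRCm38.p6. Capitals mark a match to 1 of 4 short motifs searched on both strands: the SOX core ACAAAG, the EGR core GTGGGCG, the TEAD core GGAATG and the TATA box TATAAA. SOX10, EGR2 and TEAD1 are regulators of myelin genes in Schwann cells.
Mal promoter, chr2:127656696-127656945, minus strand: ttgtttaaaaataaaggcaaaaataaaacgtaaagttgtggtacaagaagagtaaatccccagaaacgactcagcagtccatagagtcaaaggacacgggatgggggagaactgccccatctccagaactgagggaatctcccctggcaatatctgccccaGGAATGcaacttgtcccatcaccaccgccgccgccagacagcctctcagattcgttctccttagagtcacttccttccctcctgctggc
Pmp22 first promoter, chr11:63128732-63128981, plus strand: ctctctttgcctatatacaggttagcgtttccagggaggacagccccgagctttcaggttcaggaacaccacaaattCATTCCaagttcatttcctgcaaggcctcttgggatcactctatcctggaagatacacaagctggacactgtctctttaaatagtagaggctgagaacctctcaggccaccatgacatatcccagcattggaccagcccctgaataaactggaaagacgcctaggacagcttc
S100b promoter, chr10:76253586-76253835, plus strand: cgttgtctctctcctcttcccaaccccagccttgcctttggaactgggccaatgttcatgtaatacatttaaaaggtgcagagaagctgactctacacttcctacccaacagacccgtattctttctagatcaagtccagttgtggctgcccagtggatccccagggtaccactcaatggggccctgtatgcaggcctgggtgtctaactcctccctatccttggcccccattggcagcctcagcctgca
The Mal sequence holds 1 match to the TEAD core, starting 89 bases before the gene start (position -89). The sequence of the most upstream Pmp22 start holds 1 match on the reverse strand, at position -173, while the other 3 Pmp22 starts in the table, the S100b sequence and that of Ngfr, which are not all shown, hold no match to any of the 4 motifs. Of 32851 promoters searched over the same length, 12.6% hold the TEAD core, 16.5% the SOX core, 7.02% the EGR core and 12.4% the TATA box. A match describes the letters only.

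Mbp, which packs the cytoplasmic faces of the myelin membrane together, was read by 8 tested probe sets. Its brightest, 1433532_a_at, ran from 20415 to 27019 intensity units in control cells with a median of 23524, and from 19087 to 26482 with a median of 20789 in p190B cells. Control replicate 4 was the highest control array and p190B replicate 6 the highest p190B array, and the groups overlapped. The means were 23648 ± 2394 for control and 21264 ± 2662 for p190B (SD, n = 6 each). The log2 difference, p190B minus control, was −0.16 (SE 0.08, 95% interval −0.33 to 0.02, limma adjusted p = 0.594).

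The Mbp probe sets did not all follow the same course. Of the other 7, 5 correlated with 1433532_a_at over the 12 arrays at Pearson's r of 0.88 to 0.96. Probe set 1451961_a_at, 1 of these 5, reached 7004 on control replicate 4 and 7662 on p190B replicate 6, against 2834 to 6578 on the others. Probe set 1425264_s_at went the other way (r = −0.68, Spearman's rho = −0.63). It read 1360 on control replicate 4 and 1229 on p190B replicate 6, the lowest value of each group, and 1487 to 2388 on the other 10 arrays. Probe set 1425263_a_at was also no companion of the main group (r = −0.30, rho = −0.44), and its lowest array was p190B replicate 3 at 142. The Mbp locus also makes the golli transcripts, which other cell types use and which share exons with the myelin transcripts. The sources used here do not say which transcripts each probe set reads, so the probe sets are kept apart. Without control replicate 4 and p190B replicate 6, the r of 1425264_s_at with 1433532_a_at was −0.34.

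**Figure D1:**
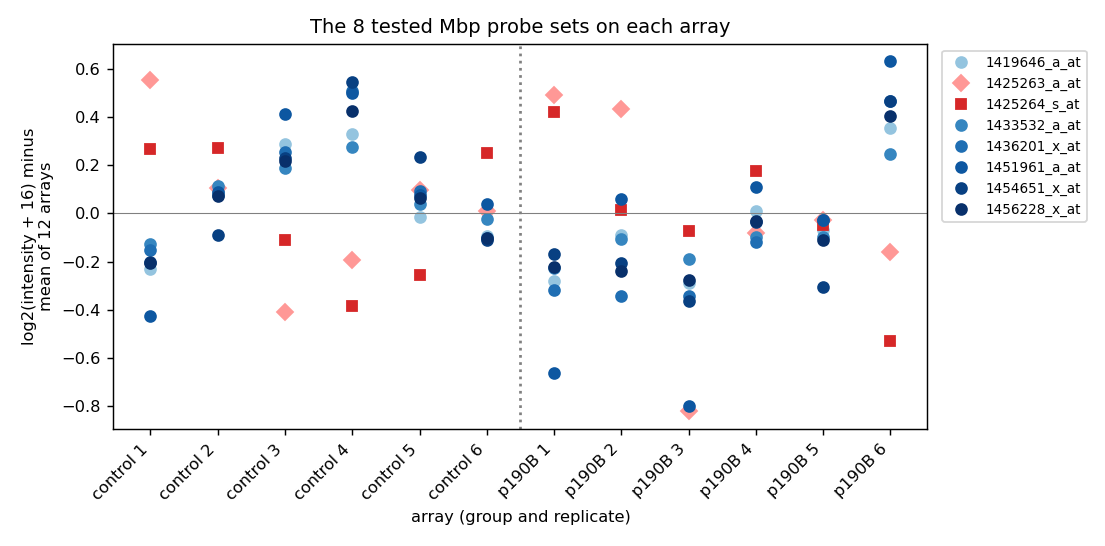
The 8 tested Mbp probe sets on each of the 12 arrays, as log2(intensity + 16) minus the probe set's mean over the arrays (vertical axis) against array (horizontal axis). The 6 probe sets in blue sit high on control 4 and p190B 6, where 1425264_s_at (red squares) sits at its lowest in each group.

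Pmp22, a membrane protein of compact myelin with several promoters, was read by a single probe set, 1417133_at. It ran from 19022 to 25933 in control cells (median 23473) and from 20742 to 26832 in p190B cells (median 22167). The highest array of each group was again control replicate 4 and p190B replicate 6. The means nearly coincided, at 22872 ± 2675 and 22816 ± 2137 (SD, n = 6 each), and the 95% interval of the log2 difference ran from −0.17 to 0.17 (limma). This interval leaves room for a change of that size in either direction.

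Mal, a raft proteolipid of myelin that also serves apical transport in epithelia, ran by probe set 1417275_at from 2454 to 3658 in control cells (median 3047) and from 2199 to 3667 in p190B cells (median 2534). Its top value in each group was on control replicate 4 and p190B replicate 6. The log2 difference was −0.19 (SE 0.12, 95% interval −0.45 to 0.07, limma adjusted p = 0.687). The second Mal probe set, 1432558_a_at, followed the first over the arrays (r = 0.96, rho = 0.92) and differed by −0.30.

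S100b, a calcium-binding protein of glia, ran by probe set 1434342_at from 635 to 1088 in control cells (median 780) and from 556 to 1070 in p190B cells (median 644). The top of both ranges came from the same 2 arrays as for Mal, and the ranges overlapped. The log2 difference was −0.21 (SE 0.15, 95% interval −0.54 to 0.12, limma adjusted p = 0.730). The second S100b probe set, 1419383_at, read 664 on control replicate 4 and 679 on p190B replicate 6 and differed by 0.01 between genotypes. Its r with the first was 0.78 over all arrays (rho = 0.55) and 0.15 without those 2.

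Cdh19, a cadherin of the Schwann cell lineage, ran by 1457373_at from 808 to 1483 in control cells (median 854) and from 536 to 922 in p190B cells (median 747). Its 2 highest arrays were control replicates 4 and 3, and p190B replicate 6 was the highest of the p190B group. The means were 975 ± 262 and 742 ± 143 (SD, n = 6 each). Cdh19 had the largest genotype difference of the tested probe sets of these genes, −0.37 (SE 0.16, 95% interval −0.72 to −0.03). It did not pass over all probe sets (limma adjusted p = 0.489, unadjusted p = 0.0350).

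Ngfr, the p75 neurotrophin receptor, had the largest excess on both high arrays among the brightest probe sets. Probe set 1454903_at ran from 289 to 676 in control cells (median 398) and from 290 to 738 in p190B cells (median 341). Control replicate 4 lay 1.78-fold above the mean of the other control arrays, and p190B replicate 6 lay 2.07-fold above the mean of the other p190B arrays. The log2 difference between genotypes was −0.05 (SE 0.24, 95% interval −0.55 to 0.45, limma adjusted p = 0.972). Both dimmer Ngfr probe sets, which were not tested, had the same highest arrays: 1450177_at read 219 and 218 there against at most 116 elsewhere, and 1421241_at read 72.9 and 115 against at most 69.5.

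Ncam1, an adhesion molecule of non-myelinating Schwann cells and of other neural and lymphoid cells, followed the group in part at most. Its brightest probe set, 1426864_a_at, ran from 216 to 324 in control cells (median 285) and from 228 to 348 in p190B cells (median 342). The log2 difference was 0.19 (SE 0.14, 95% interval −0.10 to 0.48, limma adjusted p = 0.720), while the other tested Ncam1 probe sets, 1426865_a_at and 1450437_a_at, both differed by −0.21. Probe set 1426865_a_at was highest on p190B replicate 6, at 323 against at most 303 on the others, but read 239 on control replicate 4, the lowest control value. Probe set 1450437_a_at was highest on control replicate 4, at 231, and read 171 on p190B replicate 6, inside the p190B range of 106 to 201. These 2 correlated with the brightest at r of −0.02 and −0.32 (rho −0.12 and −0.44). The Ncam1 probe sets therefore carried different patterns, and the 4 further ones lay below the filter.

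**Figure D2:**
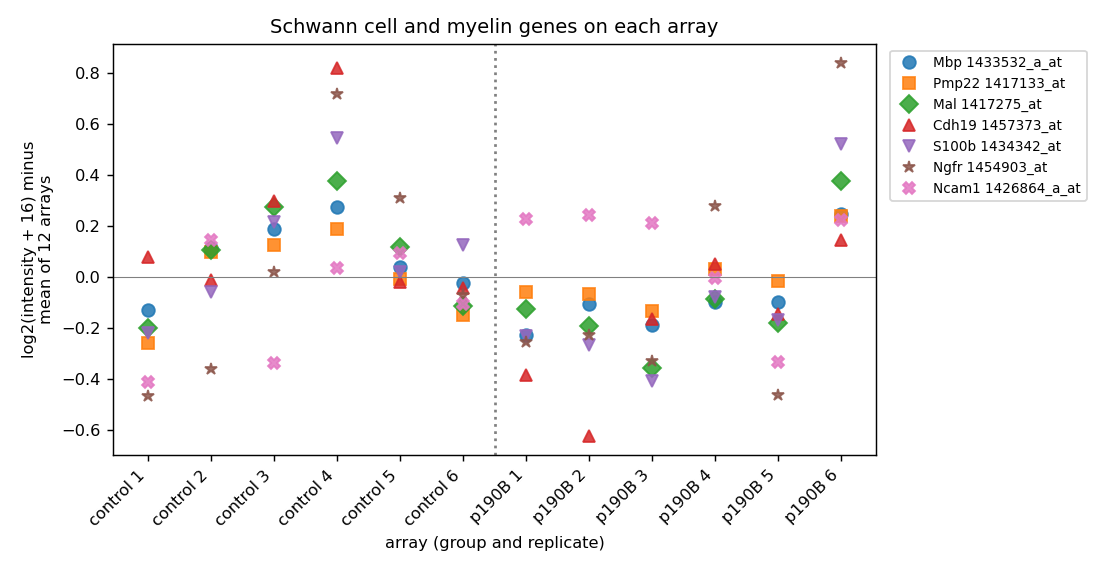
Log2(intensity + 16) of the brightest tested probe set of each of the 7 measured genes (vertical axis), minus its mean over the 12 arrays, against array (horizontal axis). The points for control 4 and p190B 6 lie above the mean for all 7 genes. Ncam1 is highest on p190B 2 and p190B 1, with p190B 6 close behind.

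Counted over the 18 tested probe sets, p190B replicate 6 was the highest of all 12 arrays for 7, where 6.55% of all tested probe sets had it as highest. Control replicate 4 was highest for 8, where the share of all was 6.78%. These 2 arrays were the highest pair for 12 of the 18, against 1.68% of all tested probe sets. Probe sets of 1 gene share its RNA and Mbp gives 8 of the 18, so the 18 are not separate members. By brightest probe set, 6 of the 7 genes were highest on 1 of these 2 arrays, where 13.3% of all tested probe sets were. The rule that chose the genes used p190B replicate 6, so its counts are a description. Within its own group, p190B replicate 6 was above the other 5 arrays for 14 of 18 probe sets (14.8% of all), and control replicate 4 likewise for 14 of 18 (15.5% of all). The median excess of p190B replicate 6 over the mean of the other p190B arrays was 0.55 log2 units, against −0.01 for all tested probe sets. For control replicate 4 it was 0.38, also against −0.01. Over the brightest probe sets other than that of Ncam1, the excess ran from 0.29 for Pmp22 to 1.04 for Ngfr on p190B replicate 6. On control replicate 4 it ran from 0.23 for Pmp22 to 0.83 for Ngfr. Probe sets of 1 gene differed as well: on p190B replicate 6 the excess was 0.39 for Mbp 1433532_a_at and 0.89 for the dimmer Mbp 1451961_a_at. These ranges are therefore not differences among genes alone, and the part of brightness in them was not tested.

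Over the 12 arrays, 6 of the 7 genes varied together, read by their brightest probe sets. Mbp and Mal had the closest match (r = 0.95), and both had r = 0.92 with S100b. The 15 pairs without Ncam1 ran from r of 0.53 to 0.95 with a median of 0.77. Without control replicate 4 and p190B replicate 6 they ran from 0.26 to 0.90 with a median of 0.56, so part of the relation rests on those 2 arrays. Mbp with Mal kept r = 0.90 and Mal with S100b 0.83 over the other 10 arrays, whereas Mbp with Ngfr went from 0.72 to 0.34. Ncam1 ran from −0.32 to 0.30 with the other genes. All genes of an array share its RNA and its scaling, and the genes were proposed as varying together, so these correlations are descriptions with no test.

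**Figure D3:**
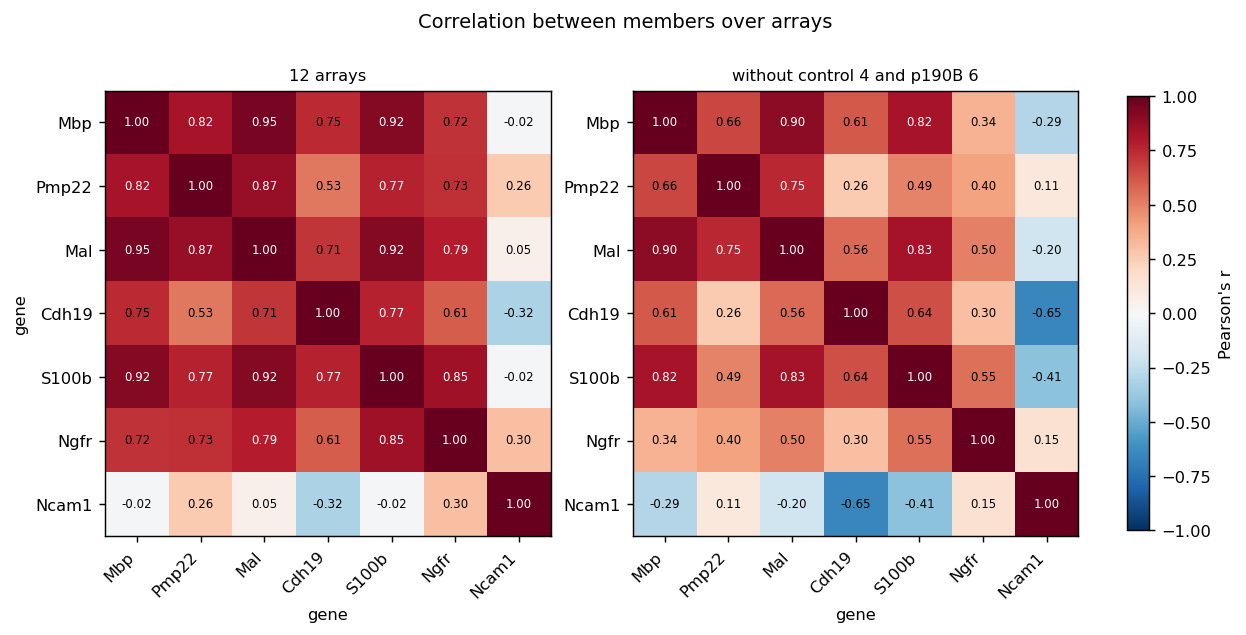
Pearson's r between the 7 genes, each by its brightest tested probe set, over all 12 arrays (left) and over the 10 arrays without control 4 and p190B 6 (right). Colour gives r from −1 to 1. Every pair without Ncam1 is positive in both panels, and the Mbp and Mal pair is at 0.95 and 0.90.

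Other genes of the Schwann cell were examined from a list of 26, of which 22 had a single-symbol probe set and 21 were tested. Their mean log2 value per array followed that of the 7 genes (r = 0.88, rho = 0.84, and r = 0.70 without the 2 high arrays). Of the 21, 12 had r over 0.5 with the mean of the 7 genes, where 7.70% of 12763 genes did, and 12 were highest on control replicate 4 (10 genes) or p190B replicate 6 (2 genes), where 13.3% of all tested probe sets were. Pmp2, the fatty-acid-binding protein of peripheral myelin, had the highest r of all 12763 genes (0.95, rho = 0.90). It read 1275 on control replicate 4 and 1100 on p190B replicate 6, against 444 to 878 on the other arrays. Ugt8a, which makes the myelin lipid galactosylceramide, read 3421 and 3079 on these arrays against 1835 to 2816 (r = 0.78). Cnp, an enzyme of non-compact myelin, was high on control replicate 4 alone, at 8592, while p190B replicate 6 read 6235 and the other 10 arrays 5010 to 7096 (r = 0.59).

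Not every gene of that list followed. Egr2, the transcription factor that switches on myelination and that many other cells induce, had r = 0.41, and the sodium channel Scn7a, which non-myelinating Schwann cells carry, had 0.46. Sox10, the transcription factor of the Schwann lineage, had r = −0.59, and Erbb3, the neuregulin receptor, −0.65. Both are also made by mammary epithelium. Sox10 read 2069 on control replicate 4 and 2364 on p190B replicate 6, against 1857 to 3833 on the other arrays. Its value on p190B replicate 6 was the lowest of the p190B group. Erbb3 read 5481 on control replicate 4, the lowest of all arrays, and 7202 on p190B replicate 6. The other arrays ran from 6280 to 9658.

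The mean of the axon and neuron genes that were tested shared the pattern in part at most. It was 8.888 on control replicate 4, the highest of all arrays, and 8.595 on p190B replicate 6. The other arrays ran from 8.435 to 8.868. By gene, 3 of the 6 tested were highest on 1 of these 2 arrays, where 13.3% of all tested probe sets were. Gap43, Npy, Uchl1 and Nefh had control means of 107 to 240, near the filter level of about 101, where values are noisy. Whether the amount of nerve varied between arrays was not tested. Of 18 listed, 17 had a single-symbol probe set and 6 were tested, and the r of their mean with that of the 7 genes was 0.24 (rho = 0.10). The neurofilament genes Nefl and Nefm and the neuronal tubulin Tubb3 were below the filter, at no more than 67.9, 76.6 and 80.5 on any array. Uchl1, a ubiquitin hydrolase of neurons, had r = 0.70 with 253 and 258 on the 2 high arrays against 132 to 256. Stmn2, a tubulin-binding protein of growing axons, had r = 0.47, the neuropeptide precursor Tac1 0.20, the heavy neurofilament Nefh 0.19, the growth cone protein Gap43 −0.11 and the neuropeptide Npy −0.53.

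Lists of markers of other cell types had lower r with the 7 genes over the 12 arrays than the other Schwann cell genes had. The r of their list means was 0.46 for endothelial cells and pericytes (12 genes), 0.35 for fibroblasts (12), 0.31 for skeletal muscle (12), 0.19 for macrophages (10), 0.18 for B and plasma cells (6) and 0.15 for T and NK cells (10). It was −0.03 for adipocytes (9 genes), −0.19 for basal and myoepithelial cells (10), −0.32 for luminal cells (13) and −0.51 for melanocytes (3), with rho from −0.44 to 0.48 over these 10 lists. Within the 6 control arrays the r was higher for skeletal muscle (0.78, rho = 0.77) and fibroblasts (0.62, rho = 0.77) and was −0.74 for basal cells (rho = −0.49), beside 0.91 for the other Schwann cell genes. Within the 6 p190B arrays these values were −0.25, 0.24 and 0.17, beside 0.85. The fibroblast mean was 13.61 on control replicate 4, the highest control value, and 13.59 on p190B replicate 6, where the other arrays ran from 12.87 to 13.65. The endothelial and pericyte mean was 12.41 on control replicate 4 and 12.37 on p190B replicate 6. The other arrays ran from 11.84 to 12.39. Of its 12 genes, 7 were highest on 1 of these 2 arrays, where 13.3% of all tested probe sets were. Among the 21 other Schwann cell genes 12 were, so standing high on these arrays was not particular to Schwann cell genes. The luminal mean was 13.33 on control replicate 4, the lowest of all arrays, and 13.52 on p190B replicate 6, inside the range of the others. The T and NK cell mean was 9.72 on control replicate 4 and 7.94 on p190B replicate 6. The log2 ratio of 3′ to 5′ signal, a measure of RNA length, was 0.28 on control replicate 4 and 0.32 on p190B replicate 6 for Actb, against 0.25 to 0.59 on the others, and −0.48 and −0.44 for Gapdh, against −0.52 to −0.32. Whether any of these moved the Schwann cell and myelin genes was not tested.

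**Figure D4:**
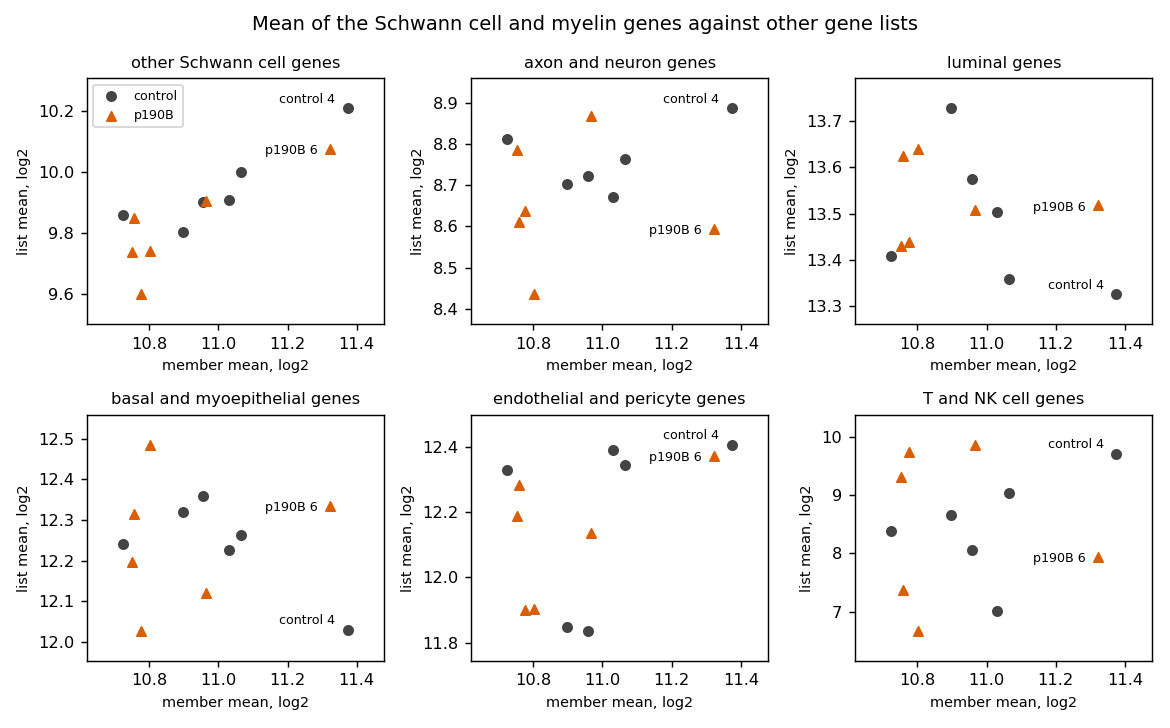
Mean log2(intensity + 16) of 6 gene lists (vertical axes) against that of the 7 Schwann cell and myelin genes (horizontal axes), 1 point per array, circles for control and triangles for p190B. The r with the 7 genes is 0.88 for the other Schwann cell genes and 0.24 for the axon and neuron genes.

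The genes most like each member were found by r over the 12 arrays among 12763 genes. Mbp was matched by Bcas1, a protein of myelinating oligodendrocytes (r = 0.93), and by Tiprl, a regulator of PP2A-type phosphatases (0.91). Pmp22 was matched by the growth factor Fgf7 (0.90), Pea15a (0.87) and Vit (0.86), and S100b by Fez1, a kinesin adaptor (0.95), and Lgi1, a secreted ligand of ADAM-family receptors (0.92). Mal was matched by the semaphorin Sema3b (0.92). Cdh19 was matched by the potassium channel Kcna1 (0.96), Aspa, which breaks down N-acetylaspartate (0.94), and A530047J11Rik (0.94). Ngfr was matched by the pyrophosphate transporter Ank (0.95), Aoc1 (0.93) and Tmem86a (0.93), and Ncam1 by Bche (0.84), Uso1 (0.84) and Col26a1 (0.81). The mean of the 7 genes was matched, after Pmp2, by Ank (0.93), Lgi1 (0.93), Pea15a (0.90), Cyp7b1 (0.90), Fez1 (0.90), Sostdc1 (0.88), Eda2r (0.88), Cxcl14 (0.88) and Tmod3 (0.88). Without control replicate 4 and p190B replicate 6, these 10 genes kept r of 0.63 to 0.91.

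Between genotypes, 0 of the 18 tested probe sets passed at an adjusted p of 0.05 (limma with Benjamini-Hochberg adjustment), where 0.0370% of all tested probe sets did. At an unadjusted p of 0.05, 1 of 18 passed, that of Cdh19, where 9.32% of all did. The groups were separated without overlap for 0 of 18, where 0.877% of all were. Lower means in p190B were seen for 16 of 18 probe sets, against 45.1% of all tested, with a median log2 difference of −0.17 against 0.02 for all. A sign of RNA quality moved with genotype too: the log2 ratio of 3′ to 5′ signal for Gapdh ran from −0.52 to −0.47 in control and from −0.48 to −0.32 in p190B, with 5 of 6 p190B arrays above every control array. For Actb it ran from 0.25 to 0.35 in control and from 0.31 to 0.59 in p190B, highest on p190B replicates 3 (0.59) and 1 (0.48). The r of these ratios with the mean of the 7 genes was −0.32 for Gapdh (rho = −0.22) and −0.44 for Actb (rho = −0.45). Their part in the genotype difference was not tested. The fit without p190B replicates 1 and 3, given in the next paragraph, does not isolate it. These 2 arrays also had the lowest T and NK cell means of the p190B group, at 6.67 and 7.38. The probe sets of a gene share its RNA, and Mbp alone gives 8 of the 18. By brightest probe set, 6 of 7 genes were lower, Ncam1 being the exception, and the Pmp22 difference was near 0. Of the 21 other Schwann cell genes, 0 passed the adjusted limma test, 4 had an unadjusted p under 0.05 (all 4 lower), and 15 were lower, with a median of −0.12. Of the 6 axon and neuron genes, 0 passed and 0 had such an unadjusted p. Pou3f1, a transcription factor of promyelinating Schwann cells that was singled out after its value was seen, differed by −0.49 (SE 0.12, limma adjusted p = 0.198).

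The size of the genotype difference depended on which arrays were left out. The genes were chosen for standing high on p190B replicate 6, so leaving it out lowers their p190B mean and spread by construction, and the values without it are a description. Without p190B replicate 6, the median log2 difference of the 18 was −0.25 and 9 of 18 had an unadjusted limma p under 0.05, all 9 lower in p190B, where 9.72% of all tested probe sets had such a p. The adjusted test called 0 of them (0.0333% of all), and the lowest adjusted p was 0.328, for Mbp 1433532_a_at. Without control replicate 4 the median was −0.12 and 0 of 18 had an unadjusted p under 0.05 (8.31% of all), and 0 passed the adjusted test (0.0185% of all). With both arrays left out the median was −0.18 and 9 of 18 had such a p (8.38% of all), with 0 past the adjusted test (0.0222% of all) and a lowest adjusted p of 0.453. Control replicate 4 was also singled out because it stood high for these genes. Leaving out both arrays therefore lowers the spread of these genes by construction, and the values without both are a description too. P190B replicates 1 and 3 had the highest Actb ratio of 3′ to 5′ signal. Without these 2 arrays the median was −0.08, nearer to 0 than in the other 3 fits. For most of the 18 probe sets, 1 of these 2 arrays was also the lowest of all arrays. Leaving out such low values raises the p190B mean by construction, so this fit is a description too. In that fit 6 of 18 probe sets were higher in p190B, 0 of 18 had an unadjusted limma p under 0.05 (11.9% of all) and 0 passed the adjusted test (0.0185% of all). Lower Schwann cell and myelin signal in p190B cells was therefore not a call in any of these fits.

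**Figure D5:**
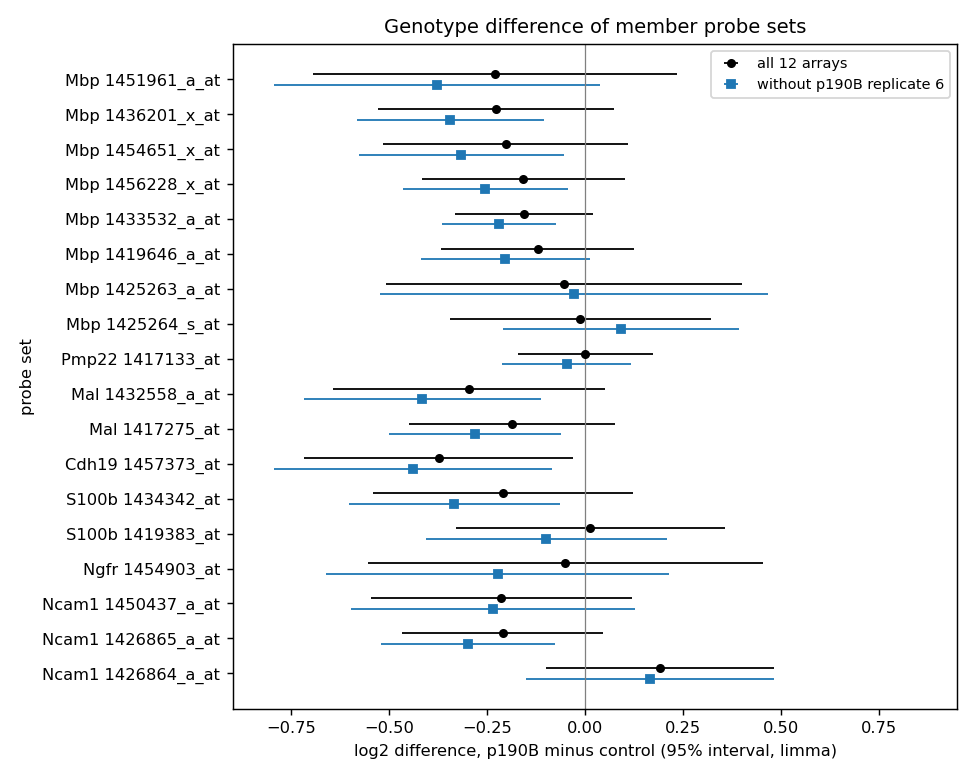
Log2 difference of p190B minus control (horizontal axis) for the 18 tested probe sets (vertical axis), with 95% intervals from limma, over all 12 arrays (black) and without p190B replicate 6 (blue). Most points lie below 0 and move further down without p190B replicate 6, and 0 of 18 pass the adjusted test in either fit.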

How the data were processed

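Total RNA from 12 samples was labelled with biotin and hybridised to Affymetrix arrays, per the labels' protocols. The deposited values are linear intensities, 1 per probe set and array, made with MAS5 per the submitters' processing notes, with no version or scaling target stated in them. MAS5 scales each array to a common level, so values are relative to the array's other signal, and dim values are noisy. Arrays have no read depth, and their number (6 per group) limits the precision.

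Probe sets were named through the platform annotation with RefSeq symbols of GRCm38.p6: 34945 had 1 symbol, 932 several and 9160 none. Values were used as log2(intensity + 16), which makes folds of dim genes too small. Probe sets at or above the 40th percentile of mean log2 value entered a two-sided limma test (version 3.58.1, R 4.3.3, lmFit and trended eBayes). P-values were adjusted over all 27022 by Benjamini-Hochberg, with a threshold of 0.05. The median standard error was 0.124. On simulated data with 200 changed probe sets of 27022 for p190B against control, 10 runs recovered 57.3% of 1.5-fold, 86.3% of 2-fold and 98.5% of 4-fold changes. The simulated noise was independent between probe sets, with none of the shifts that many genes of an array share. With 200 true changes the adjusted threshold is also easier to reach than in the real fit, which called 10 probe sets. The rates for the real data can therefore be lower.

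Genes named are all probe sets of the 8 genes, the 3 genes most like each and the 10 most like their mean, the 6 brightest of the other Schwann cell and of the axon and neuron genes, and the 3 brightest of other lists, given where a result turns on them. A gene was read by its brightest tested probe set. The genes, the lists and these rules were chosen with earlier results of these data known. The labels do not state that replicate numbers pair samples across groups, and the reported fit did not pair them. Deviations of same-numbered arrays correlated from −0.29 to 0.41, highest for replicate 4. Such correlations cannot tell whether samples shared a preparation. No batch is given in the sources used here. Alternatives were other pseudocounts, filters, normalisations, eBayes settings, array weights, a replicate block and arrays left out. The fit without both control replicate 4 and p190B replicate 6 was added after seeing the data.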

Additional observations from a re-analysis of the deposited data

Results flagged for a closer look

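Among 42 groups of 6 arrays examined (the tested probe sets and list means in each genotype), 6 had 1 array far from the rest by Dixon's criterion, and each time it was p190B replicate 6. The genes were chosen because they stood high on that array, so these flags restate the choice and are no evidence beyond it. Chance flags about 1 in 20 groups of genes not chosen in this way. In log2 units, Mbp 1433532_a_at read 14.69 there against 14.22 to 14.35 on the other p190B arrays, and Mbp 1456228_x_at read 13.86 against 13.18 to 13.43. Mal 1417275_at read 11.85 against 11.11 to 11.38. S100b 1434342_at read 10.08 against 9.16 to 9.48, and Ncam1 1426865_a_at read 8.41 against 7.80 to 7.97. The mean of the 7 genes was 11.32 against 10.75 to 10.97. Why this array stands apart was not tested.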

How the results depend on the processing

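No alternative gave a call for any of the 18 probe sets of the Schwann cell and myelin genes: the count past the threshold was 0 throughout, and their lowest limma adjusted p over 24 settings was 0.328. Their median log2 difference ran from −0.25 (without p190B replicate 6) to −0.08 (without p190B replicates 1 and 3). Of 428 values of single probe sets under the alternatives, 396 kept their direction and 32 did not. The reversed values lay close to 0: S100b 1419383_at was −0.0082 after quantile normalisation and −0.016 with equal medians. Pmp22 was 0.013 with array weights. Without p190B replicates 1 and 3, Pmp22 was 0.047, Mbp 1425263_a_at 0.014, Mbp 1451961_a_at 0.078 and Ngfr 1454903_at 0.082. Mbp 1425264_s_at was 0.013 without both control replicate 4 and p190B replicate 6. Leaving out 1 array at a time, differences ran from −0.051 to 0.038 for Pmp22, −0.099 to 0.12 for S100b 1419383_at, −0.16 to 0.10 for Mbp 1425263_a_at, −0.098 to 0.092 for Mbp 1425264_s_at and −0.22 to 0.088 for Ngfr 1454903_at. The count over all probe sets was 10 in the reported fit, 5 with no filter, 17 with a filter at the 60th percentile, 31 after quantile normalisation (9 of them higher, against 1 of 10) and 3 with equal medians. It was 3 with eBayes without trend, 19 with array weights, 0 with a replicate block (limma, 2287 at an unadjusted p under 0.05), 5 without p190B replicates 1 and 3, 6 without both high arrays, and 4 to 9 leaving out 1 array at a time. The replicate block called 0 of the 18, as the fit without it did. The cause of these changes was not tested. The 4 Ncam1 and 2 Ngfr probe sets below the filter were tested with no filter only, where 0 of 24 passed.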

Other observations

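The gene with the widest gap between p190B replicate 6 and the other 11 arrays, among 1 probe set per tested gene, was Aoc1, a diamine oxidase that breaks down histamine. It read 7150 there, 1348 on control replicate 4 and 4.8 to 772 on the other arrays. Other genes picked in the same way, after their values were seen, were Pcp4, a calmodulin-binding peptide (1506 against at most 589), Olfm4, a secreted glycoprotein of epithelia (2986 against at most 1215), the keratin Krt4 (539 against at most 235) and Tmem86a (8672 against at most 4131). These genes belong to none of the lists of Schwann cell or nerve genes. On control replicate 4 the widest gap was that of Tnfsf11, the cytokine RANKL, at 562 against at most 316. In both arrays these gaps sit beside the high Schwann cell and myelin signal, and whether they share a source was not tested.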
